A study of Mus musculus with 37 samples.

Results

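The integrated stress response genes described here are 9 transcripts: Atf4, Ddit3, Trib3, Asns, Chac1, Psat1, Phgdh, Sesn2 and Ddit4. They were taken by gene symbol from a count table of 32108 mouse genes, and all 9 were found in it and passed the filter on low counts in every fit. The table holds 37 RNA-seq libraries. Of these, 36 are of RNA recovered by translating ribosome affinity purification (TRAP), which pulls down tagged ribosomes of one cell type with the messages bound to them, here of podocytes, the epithelial cells that cover the filtering capillaries of the kidney. The other library is total RNA of a whole kidney. The design asks how podocyte messages change during diabetes of 2 kinds. In the type 2 model, eNOS-/- db/db mice, which lack endothelial nitric oxide synthase and also carry the leptin receptor mutation db, were compared with eNOS-/- mice, so that both arms lack the synthase. There were 5 diabetic and 5 control libraries at 3 months of age, and 3 diabetic and 4 control libraries at 6 months. The type 1 model compared mice that received streptozotocin (STZ), a toxin of the insulin-producing beta cells, with mice given no STZ. There were 5 diabetic and 4 control libraries at 3 weeks (3 months of age), and 5 and 5 at 24 weeks (8 months of age). The strain is given as C57BL/6 in all groups, and the kidney library came from an eNOS-/- mouse of 3 months. The deposited data carry the label PodocinCre, which names podocin as the driver of a Cre recombinase. Which eNOS genotype the type 1 groups had is not stated, and neither is the promoter of the ribosome tag itself. Nor do the labels say that replicates are separate animals, so the p-values measure the spread between libraries, which may be technical.

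Cells under stress can phosphorylate the translation initiation factor eIF2, through kinases that sense unfolded protein in the endoplasmic reticulum, lack of amino acids, lack of haem or double-stranded RNA. General translation then falls while the message of Atf4 is translated more, and ATF4 protein switches on genes for amino acid uptake and synthesis, for redox balance and, under lasting stress, for cell death. Much of the control of ATF4 is therefore at the level of translation, and the amount of Atf4 message on ribosomes is not a measure of its protein. Podocytes divide little and secrete much protein into the filter's basement membrane, and stress of the endoplasmic reticulum is a known feature of podocyte injury.

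ATF4 binds composite C/EBP-ATF elements as a partner of C/EBP proteins. Promoter windows from 250 bases before to 50 bases after each gene's start, taken from RefSeq on GRCm38.p6, were found for 9 of the 9 genes (10 windows). The element TGATGNAA, searched on both strands, was present in 3 of the 9 genes and in 3.97% of 32851 windows of the same length. The cAMP-type element TGACGTCA was in 0 of the 9 and in 1.79% of windows, and the short core CCACG of the endoplasmic reticulum stress element was in 7 of the 9 and in 32.8% of windows. Each motif was counted on its own, and no match to one overlapped a match to another in these windows. Sequence is shown for the 3 windows with TGATGNAA, those of Trib3, Asns and Chac1, because they hold the element. Each is written 5′ to 3′ on the gene's own strand with the matching 8 bases in capitals; in Trib3 and Chac1 the element reads on the opposite strand. A match describes the letters and is not evidence of binding.
Asns, 250 bases before the start, GRCm38.p6 chr6:7693210-7693459, minus strand: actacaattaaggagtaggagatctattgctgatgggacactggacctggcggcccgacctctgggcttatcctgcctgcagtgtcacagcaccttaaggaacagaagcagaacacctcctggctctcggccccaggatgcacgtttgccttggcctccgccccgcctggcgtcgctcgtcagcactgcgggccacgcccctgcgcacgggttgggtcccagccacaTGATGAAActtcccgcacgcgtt
Chac1, 250 bases before the start, GRCm38.p6 chr2:119350992-119351241, plus strand: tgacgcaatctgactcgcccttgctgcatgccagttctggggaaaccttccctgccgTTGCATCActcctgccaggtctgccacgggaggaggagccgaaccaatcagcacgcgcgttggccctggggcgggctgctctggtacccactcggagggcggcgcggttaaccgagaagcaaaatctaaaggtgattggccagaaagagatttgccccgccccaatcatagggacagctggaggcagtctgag
Trib3, 30 bases just after the start, GRCm38.p6 chr2:152344028-152344057, minus strand: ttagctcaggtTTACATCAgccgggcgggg

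Total counts ranged from 6702120 to 37786025 per TRAP library and were 28033680 in the kidney library. Some libraries stood apart. Of the 5 diabetic libraries at 3 months, replicates 4 and 5 had summed macrophage markers of 304.5 and 157 CPM (counts scaled to library size and normalised for composition), against 42.1 to 51.7 in the other 3, and summed podocyte markers of 12823 and 14603 CPM against 23014 to 25472. Diabetic replicate 3 at 6 months was lowest of all TRAP libraries in total counts and in its podocyte sum, 2568 CPM. At 3 weeks, diabetic replicates 1 to 3 had podocyte sums of 9127 to 10013 CPM and replicates 4 and 5 had 21558 and 19133. All 8 podocyte markers were detected in every library, so the labelled cell type was present throughout, with RNA of other kidney cells beside it. In such bulk RNA, fewer podocytes and less RNA per podocyte cannot be told apart.

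The 9 messages differed widely in level. On the deposited FPKM scale, which divides counts by gene length and library total, the median over the 36 TRAP libraries was 55.0 for Atf4, 18.97 for Ddit4, 12.7 for Sesn2, 8.08 for Ddit3, 4.70 for Psat1 and 3.34 for Phgdh. Asns, Chac1 and Trib3 lay under 1 FPKM, at 0.909, 0.488 and 0.448. These 3 rest on few reads. Trib3 had 0 counts in 4 libraries and Chac1 in 2, and the highest count of any library was 76 for Trib3, 108 for Chac1 and 299 for Asns. Atf4 was also the steadiest of the 8 members with reads in every group: its highest group mean was 1.29 times its lowest in CPM, against 6.80 times for Ddit4.

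Levels in podocyte TRAP RNA were set beside those in whole kidney. In the eNOS-/- controls at 3 months, the ratio of TRAP to kidney (CPM plus 0.5 in both) was 1.504 for Atf4, 1.31 for Ddit3, 0.972 for Asns, 0.765 for Sesn2, 0.760 for Ddit4, 0.649 for Phgdh, 0.630 for Psat1 and 0.618 for Trib3. For comparison, the slit diaphragm gene Nphs1 had a ratio of 108, and the proximal tubule genes Slc34a1 and Pck1 had 0.336 and 0.315. These 2 tubule genes still had means of 1508 and 1232 CPM in the TRAP libraries. The part of RNA from other kidney cells in the members' ratios was not tested. The kidney value of Chac1 rests on 4 counts (0.148 CPM, exact 95% Poisson interval 0.0403 to 0.379), so its ratio of 1.69 is loosely known. The added 0.5 is larger than that value and pulls the ratio towards 1. It also pulls the ratio of Trib3, at 0.358 CPM in TRAP and 0.887 CPM in the kidney. Atf4 was above the kidney's counting interval in 5 of 5 TRAP libraries, Chac1 in 4 and Ddit3 in 3. Psat1, Phgdh and Trib3, 2 enzymes of serine synthesis and a regulator of ATF4, were below it in 5 of 5, and Sesn2 and Ddit4 in 4. There was 1 kidney library, so no test was possible, and the intervals cover counting error only. How many of all genes lie wholly above or below such an interval was not counted, so these counts show nothing particular to the members.

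**Figure D1:**
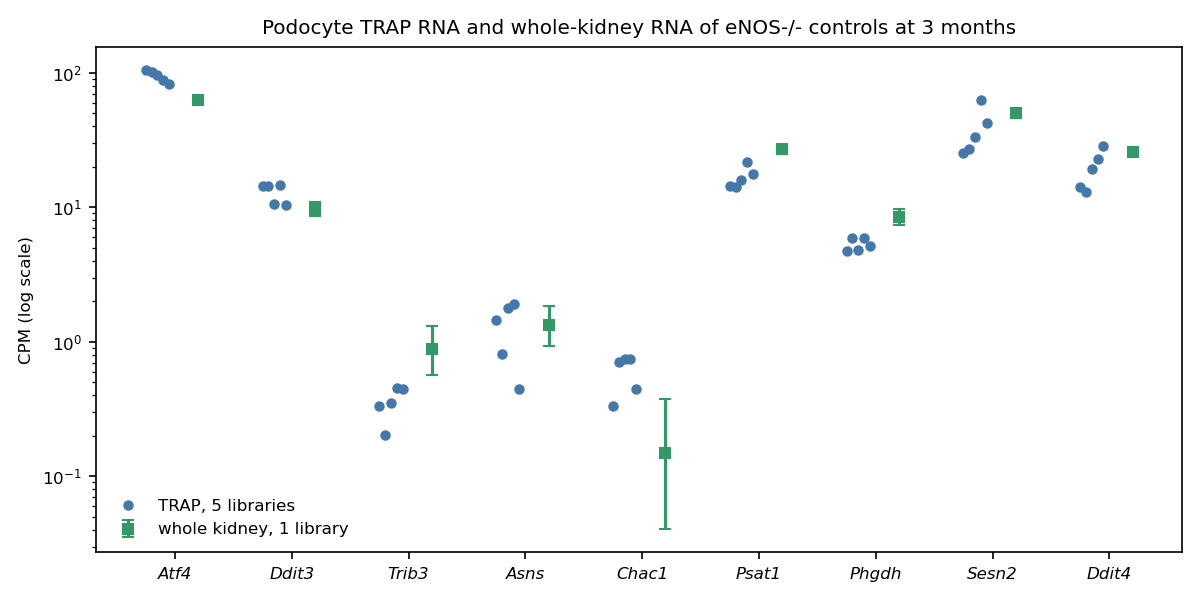
Level of the 9 genes (CPM, log axis) in the 5 TRAP libraries of eNOS-/- controls at 3 months (circles) and in the kidney library (squares, with exact 95% Poisson intervals). Atf4 lies above the kidney value in all 5 libraries, and Trib3, Psat1 and Phgdh lie below it in all 5.

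Diabetes was accompanied by higher levels of some members of the programme and left others, Atf4 among them, with no difference that passed the test. A gene was called when its adjusted p in edgeR's quasi-likelihood test (Benjamini-Hochberg over all genes tested) was under 0.05. In the type 2 model at 3 months 2 of the 9 were called, Chac1 and Phgdh, both higher. Of all genes tested, 3.99% were called there and 2.03% were called higher, and in 2.9% every diabetic library lay above every control, as in 3 of the 9 members. At 6 months 3 of the 9 were called, Chac1, Psat1 and Ddit4, all higher, in a comparison that called 22.9% of all genes and 11.2% as higher. In 5 members every diabetic library lay above every control, against 13.8% of all genes, and in 1 member every one lay below, against 15.8%. In the type 1 model at 3 weeks Trib3 was called, higher, where 6.5% of genes were called, 3.78% as higher, and 4.53% had no overlap upward. At 24 weeks Phgdh was called, higher, where 0.897% of genes were called, 0.448% as higher, and 1.66% had no overlap upward. No member was called lower by edgeR in any of the 4 comparisons, while DESeq2 called Sesn2 lower at 3 weeks (adjusted p = 0.0429). The median log2 change of the 9 was 1.07, 1.27, 0.92 and 0.46 in that order, beside 0.04, -0.01, 0.00 and -0.01 over all genes tested.

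**Figure D2:**
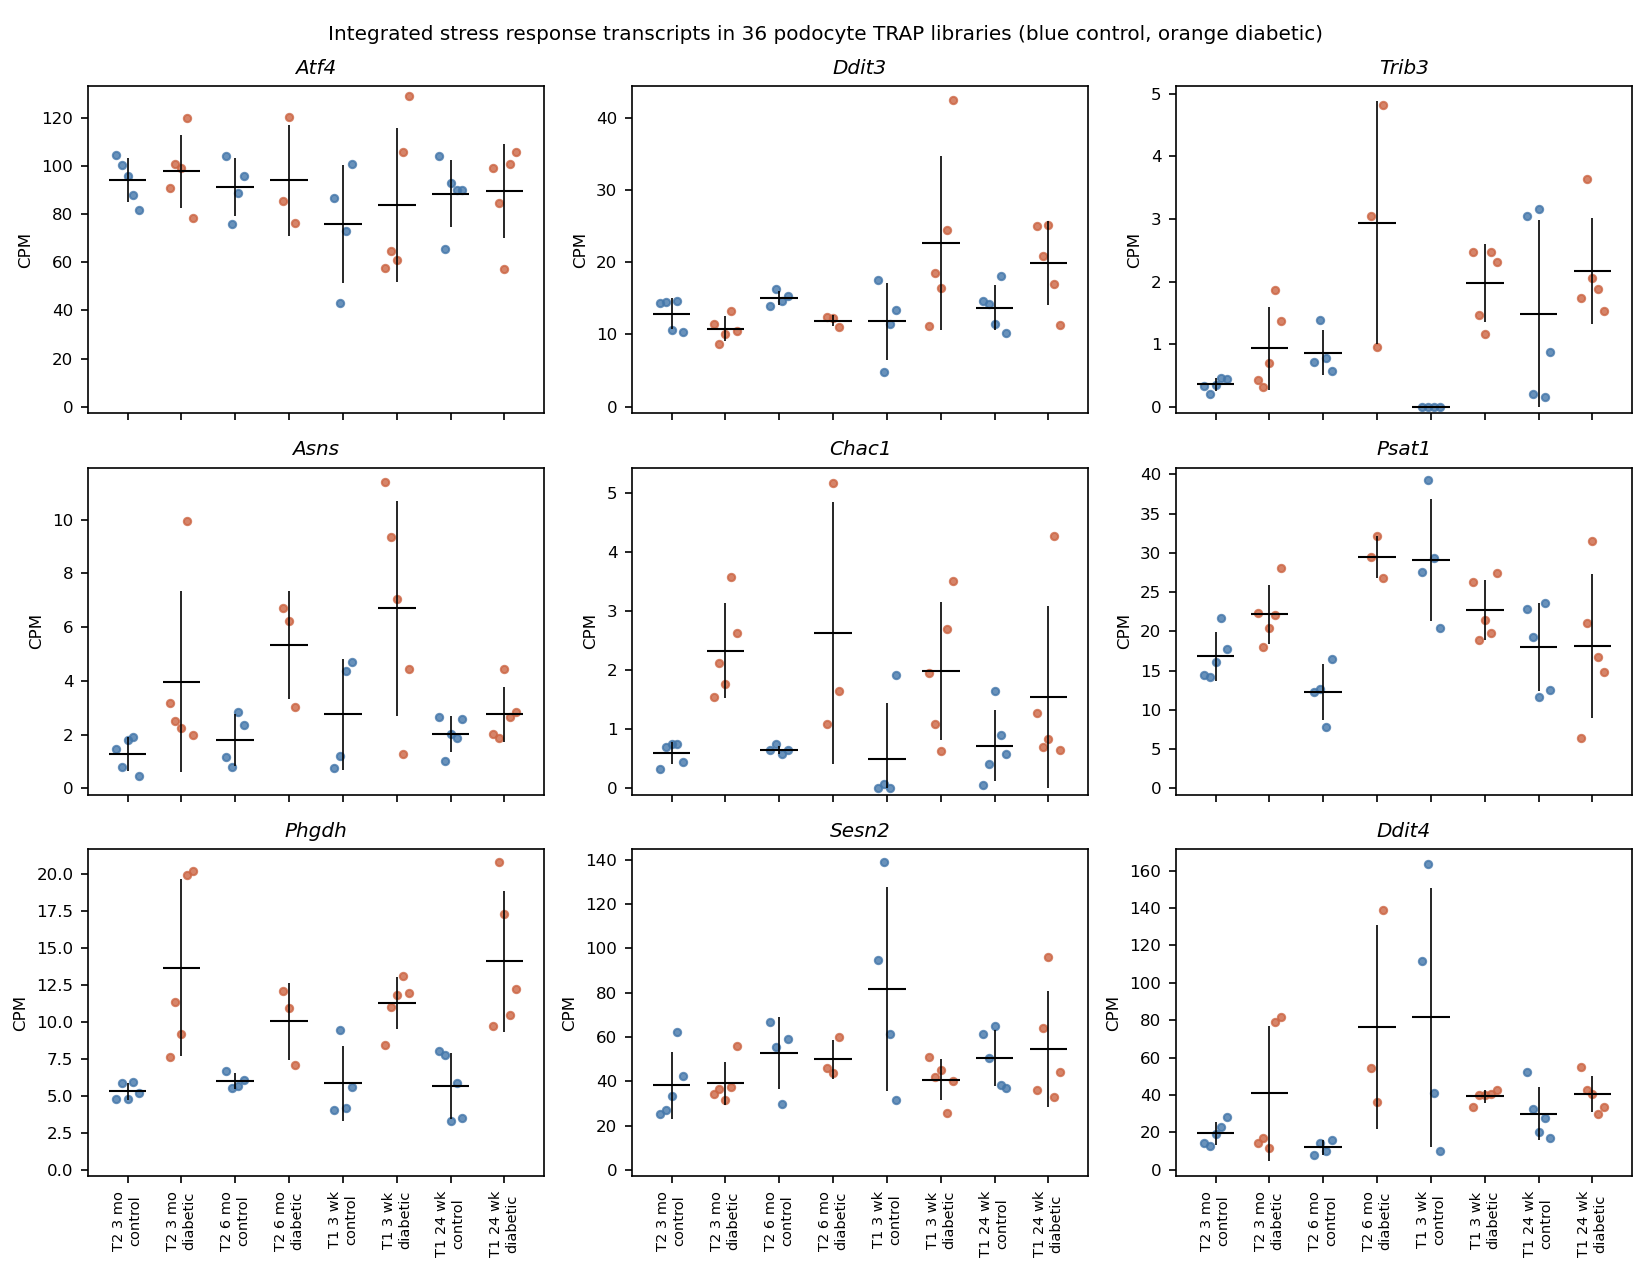
CPM of each gene in each of the 36 TRAP libraries, by model (T2, T1), time and arm (blue control, orange diabetic); horizontal bars are group means and vertical bars 1 SD, cut at 0. Atf4 is level across groups, Trib3 is at 0 in all 4 controls at 3 weeks, and the 3 diabetic libraries at 6 months lie above the 4 controls for Psat1, Phgdh, Asns, Chac1 and Ddit4.

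Atf4 encodes the central transcription factor of the response (ENSMUSG00000042406, GRCm38 chr15:80255184-80257540). Its level in the type 2 model at 3 months was 105, 100.3, 95.8, 87.8 and 81.9 CPM in the controls and 91.0, 100.6, 99.0, 120.05 and 78.3 CPM in the diabetic libraries. At 6 months it was 104, 75.9, 89.0 and 96.0 CPM in the controls and 85.4, 120.3 and 76.2 CPM in the diabetic libraries. The arms overlapped at both ages. The fitted log2 change was 0.05 ± 0.14 (SE) at 3 months and 0.05 ± 0.16 at 6 months, with adjusted p of 0.904 and 0.852. For type 1 diabetes the 3-week controls ranged from 43.1 to 100.8 CPM and the diabetic libraries from 57.8 to 129 CPM, a log2 change of 0.12 ± 0.24 (adjusted p = 0.839). At 24 weeks the change was 0.02 ± 0.23 (adjusted p = 0.991). The 95% intervals of the 4 log2 changes lay between -0.47 and 0.64.

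Ddit3 encodes CHOP, a transcription factor downstream of ATF4 that is linked to cell death under lasting stress (chr10:127290774-127296288). It did not pass the test in any comparison, and its fitted change had another sign in each model. At 6 months of the type 2 model the controls had 13.9, 16.3, 14.6 and 15.3 CPM and the diabetic libraries 12.4, 12.3 and 11.03 CPM. Each diabetic library was below each control, by a log2 change of -0.33 ± 0.20 (adjusted p = 0.234). At 3 months the change was -0.26 ± 0.16 (adjusted p = 0.471). At 3 weeks of the type 1 model the controls had 17.6, 4.81, 11.4 and 13.4 CPM and the diabetic libraries 11.2, 18.6, 16.4, 24.5 and 42.5 CPM. The arms overlapped, and the change was 0.92 ± 0.36 (adjusted p = 0.135; 0.0397 with all 36 libraries in a single fit). At 24 weeks it was 0.55 ± 0.33 (adjusted p = 0.633). The difference between the 2 early effects was -1.19 ± 0.40 (type 2 less type 1; adjusted p = 0.147). The annotated gene overlaps a second Ddit3 entry over 2925 bp on the same strand and Mars over 68 bp on the opposite strand, and reads there may be shared or dropped.

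Trib3 encodes a pseudokinase that ATF4 and CHOP induce and that feeds back on both (chr2:152337422-152344032). At 3 weeks of the type 1 model it had 0 counts in all 4 control libraries. The 5 diabetic libraries had 63, 24, 24, 33 and 23 counts, or 2.47, 1.47, 1.17, 2.48 and 2.31 CPM. The change was called (adjusted p = 0.00184). Set against the floor of 3 counts per control library, which averaged 0.209 CPM, the diabetic mean of 1.98 ± 0.62 CPM (SD, n = 5) was at least 9.45-fold higher. The floor covers counting error only. The call was kept without diabetic replicates 1 to 3 (adjusted p = 0.0303) and missed with a proximal tubule marker score as covariate (adjusted p = 0.0537), where the fitted log2 change was 8.36 against 7.94 without it; with the controls at 0, neither fitted value is a bound.

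Each of the other 32 TRAP libraries had at least 3 counts of Trib3. The number of detected genes was 15558 to 16362 in these 4 controls and 14320 to 21050 in the diabetic libraries at 3 weeks, and its part in the result was not tested. Controls at 24 weeks were split, at 3.05, 0.204, 3.15, 0.161 and 0.881 CPM, and the diabetic libraries had 1.74, 3.63, 2.06, 1.88 and 1.53 CPM. The arms overlapped there, with a log2 change of 0.55 ± 0.77 (adjusted p = 0.894). Trib3 in the type 2 model was 0.201 to 0.456 CPM in the controls and 0.435, 0.311, 0.695, 1.86 and 1.36 CPM in the diabetic libraries at 3 months, a change of 1.38 ± 0.60 (adjusted p = 0.239). The 2 high values were replicates 4 and 5, the libraries with high macrophage markers. At 6 months the controls had 0.717, 1.38, 0.771 and 0.576 CPM and the diabetic libraries 3.05, 0.951 and 4.82 CPM. That change of 1.77 ± 0.69 did not pass the test (adjusted p = 0.07). It was called by DESeq2 (0.0273), by limma on FPKM (0.0302), with a stricter filter on low counts (0.0476) and without diabetic replicate 2 (2.20, 0.0246), while without replicate 3 it was 1.23 (0.298) and with the podocyte score -0.95 (0.761).

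Chac1 encodes an enzyme that degrades glutathione and is among the most strongly ATF4-responsive genes (chr2:119351229-119354381). Controls of the type 2 model at 3 months had 0.335, 0.704, 0.746, 0.747 and 0.448 CPM, and the diabetic libraries 1.55, 2.13, 1.77, 3.59 and 2.62 CPM. Every diabetic library was above every control. Chac1 rose by a log2 change of 1.96 ± 0.47 (SE), 3.89-fold, with an adjusted p of 0.0205. At 6 months the controls had 0.652, 0.746, 0.579 and 0.644 CPM and the diabetic libraries 1.08, 5.18 and 1.65 CPM. The arms were again apart, and Chac1 rose by 2.01 ± 0.55 (adjusted p = 0.0151). These levels rest on 9 to 108 counts per library. The call at 3 months was lost without control 1 or control 5 (adjusted p = 0.0603 for each), without diabetic replicate 4 (0.0657) and without diabetic replicates 4 and 5 together (log2 change 1.61, adjusted p = 0.147), and the call at 6 months was lost without diabetic replicate 2 (1.05, adjusted p = 0.173). In the fit of all 36 libraries neither was called (adjusted p = 0.261 and 0.153), nor was the later one in a fit of its 2 groups alone (0.093).

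Chac1 in the type 1 model was at 0, 0.0740, 0 and 1.93 CPM in the 3-week controls and at 1.96, 1.10, 0.633, 2.70 and 3.52 CPM in the diabetic libraries. A single control, replicate 4 with 36 counts, reached into the diabetic range. The log2 change was 1.92 ± 1.157 with an adjusted p of 0.37. Without control 4, which left 1 count in all over 3 controls, the fitted change was 5.90 and called (adjusted p = 0.0181). At 24 weeks the controls ranged from 0.0586 to 1.65 CPM and the diabetic libraries from 0.658 to 4.28 CPM, a change of 1.09 ± 1.05 (adjusted p = 0.82).

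Asns encodes asparagine synthetase, a standard readout of amino acid shortage (chr6:7675169-7693254). Its fitted change was above 0 in all 4 comparisons and passed the test in none. The type 2 controls at 3 months had 1.45, 0.805, 1.79, 1.91 and 0.448 CPM and the diabetic libraries 3.17, 2.49, 2.25, 9.94 and 1.97 CPM. The arms did not overlap, though the lowest diabetic library lay just above the highest control. The log2 change was 1.62 ± 0.51 (adjusted p = 0.0876), and without diabetic replicate 4, the highest, it was 0.95 (0.395). At 6 months the controls had 1.17, 0.799, 2.84 and 2.37 CPM and the diabetic libraries 6.71, 6.24 and 3.04 CPM, again apart, with a change of 1.58 ± 0.60 (adjusted p = 0.063). DESeq2 called Asns at both ages (adjusted p = 0.023 and 0.0348), and limma on FPKM at 6 months (0.0315) but not at 3 months (0.158).

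The type 1 controls at 3 weeks had Asns levels of 0.754, 1.18, 4.35 and 4.71 CPM and the diabetic libraries 11.4, 9.34, 7.06, 1.28 and 4.43 CPM. Diabetic replicates 1 to 3, those with low podocyte markers, were above all controls, and replicates 4 and 5 lay within the control range. The change was 1.28 ± 0.59 (adjusted p = 0.211), and without replicates 1 to 3 it was 0.06. At 24 weeks it was 0.46 ± 0.55 (adjusted p = 0.863).

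Phgdh encodes phosphoglycerate dehydrogenase, the entry enzyme of serine synthesis from glucose-derived carbon (chr3:98313170-98339990). It was called in both models. Type 2 controls at 3 months had 4.76, 5.90, 4.82, 5.93 and 5.17 CPM and the diabetic libraries 7.64, 11.4, 9.18, 19.9 and 20.2 CPM. Every diabetic library was above every control, and replicates 4 and 5 were highest. Phgdh rose by a log2 change of 1.36 ± 0.26 (SE), 2.56-fold (adjusted p = 0.00341), a call that was kept with any 1 library left out and lost without replicates 4 and 5 together (0.83, adjusted p = 0.0583). At 6 months the controls had 6.71, 5.54, 5.69 and 6.07 CPM and the diabetic libraries 12.1, 10.9 and 7.10 CPM. The arms were apart, and the change of 0.76 ± 0.30 did not pass (adjusted p = 0.0758), though DESeq2 (0.0429) and limma on FPKM (0.0305) called it.

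At 24 weeks of the type 1 model the Phgdh controls had 8.03, 7.74, 3.30, 5.84 and 3.52 CPM and the diabetic libraries 9.70, 20.8, 17.3, 10.4 and 12.2 CPM. Here too every diabetic library was above every control, and Phgdh rose by 1.31 ± 0.32 (adjusted p = 0.0473). The call sits at the threshold: it was lost in 7 of the 10 fits that left out 1 library, those without control 2, 3, 4 or 5 or diabetic replicate 2, 3 or 5, with adjusted p up to 0.163, and in a fit of the 2 groups alone (0.0582). At 3 weeks the controls had 4.07, 9.47, 4.19 and 5.62 CPM and the diabetic libraries 8.42, 11.04, 11.8, 13.1 and 12.0 CPM. Control 2 alone overlapped the diabetic range, the change was 0.92 ± 0.34 (adjusted p = 0.109), and without that control it was called (1.29, adjusted p = 0.0299), as it was by limma on FPKM (0.0316) and in the 36-library fit (0.0493).

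Psat1 encodes phosphoserine aminotransferase, the enzyme after Phgdh in the same route (chr19:15904678-15947337). Type 2 controls at 6 months had 12.2, 12.6, 7.76 and 16.5 CPM and the diabetic libraries 29.4, 32.1 and 26.8 CPM. The arms were well apart, and Psat1 rose by a log2 change of 1.27 ± 0.22 (SE), 2.41-fold (adjusted p = 0.000933). This call was kept with any 1 library left out. At 3 months the controls had 14.4, 14.1, 16.1, 21.7 and 17.8 CPM and the diabetic libraries 22.3, 17.995, 20.4, 22.1 and 28.1 CPM, with overlap and a change of 0.40 ± 0.18 (adjusted p = 0.277). The difference between the ages was 0.87 ± 0.29 (adjusted p = 0.157; 1.00 and 0.0381 without diabetic replicates 4 and 5 at 3 months).

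Psat1 gave no call in the type 1 model. The 3-week controls had 27.5, 39.2, 29.3 and 20.4 CPM and the diabetic libraries 26.3, 18.9, 21.5, 19.8 and 27.4 CPM, a change of -0.38 ± 0.32 (adjusted p = 0.551). At 24 weeks the controls ranged from 11.7 to 23.6 CPM and the diabetic libraries from 6.41 to 31.5 CPM, with a change of 0.02 ± 0.30 (adjusted p = 0.995; 95% interval -0.63 to 0.66). The late effects of the 2 models differed by 1.25 ± 0.40 (type 2 less type 1; adjusted p = 0.121). The gene holds the pseudogene Gm3329 within it, over 556 bp on the opposite strand.

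Ddit4, also called Redd1, encodes an inhibitor of the growth kinase complex mTORC1 that ATF4, glucocorticoids and hypoxia all induce (chr10:59949675-59951770). Of the members' calls in the type 2 model it had the largest fold. At 6 months the controls had 7.75, 14.3, 9.93 and 16.1 CPM and the diabetic libraries 54.2, 36.2 and 139 CPM. Every diabetic library was above every control, and Ddit4 rose by a log2 change of 2.67 ± 0.66 (SE), 6.37-fold (adjusted p = 0.00991). The highest value was that of replicate 3, the library lowest in total counts and podocyte markers, and without it the change was 1.91 and the call was lost (adjusted p = 0.094). At 3 months the controls had 14.2, 13.0, 19.1, 22.7 and 28.4 CPM and the diabetic libraries 14.2, 17.3, 11.5, 79.2 and 81.9 CPM. Only replicates 4 and 5 exceeded the controls, the change was 1.07 ± 0.54 (adjusted p = 0.344), and without those 2 libraries it was -0.44.

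The spread of Ddit4 in the type 1 model was in the controls. At 3 weeks they had 112, 164, 41.2 and 10.1 CPM, while the diabetic libraries lay close together at 33.6, 40.2, 40.0, 40.4 and 42.8 CPM. The change was -1.09 ± 0.49 (adjusted p = 0.205). Without control 4, the lowest, it was -1.42 and called (adjusted p = 0.0191), and without control 2, the highest, it was -0.45 (0.644). At 24 weeks it was 0.44 ± 0.46 (adjusted p = 0.843).

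Sesn2 encodes sestrin 2, a leucine-binding inhibitor of mTORC1 induced by ATF4 and by p53 (chr4:132492032-132510501). It was not called by edgeR in any comparison. Type 2 controls at 3 months ranged from 25.3 to 62.1 CPM and the diabetic libraries from 31.4 to 55.8 CPM, a log2 change of 0.04 ± 0.24 (adjusted p = 0.962). At 6 months the change was -0.07 ± 0.29 (adjusted p = 0.889). At 3 weeks of the type 1 model the controls had 94.8, 139, 61.4 and 31.5 CPM and the diabetic libraries 50.9, 41.7, 45.01, 25.7 and 40.1 CPM. The same 2 controls, replicates 1 and 2, were highest for Sesn2 and for Ddit4, and control 4 was lowest for both. The change was -1.03 ± 0.36 (adjusted p = 0.0882). It was -1.27 (0.0265) without control 4, -0.60 (0.328) without control 2, -1.21 (0.0136) with the podocyte score and -0.089 (0.97) with the proximal tubule score. At 24 weeks it was 0.13 ± 0.34 (adjusted p = 0.955). A non-coding transcript, Gm12981, lies over 6089 bp of the gene on the same strand, so the counts of the pair may be hard to part.

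**Figure D3:**
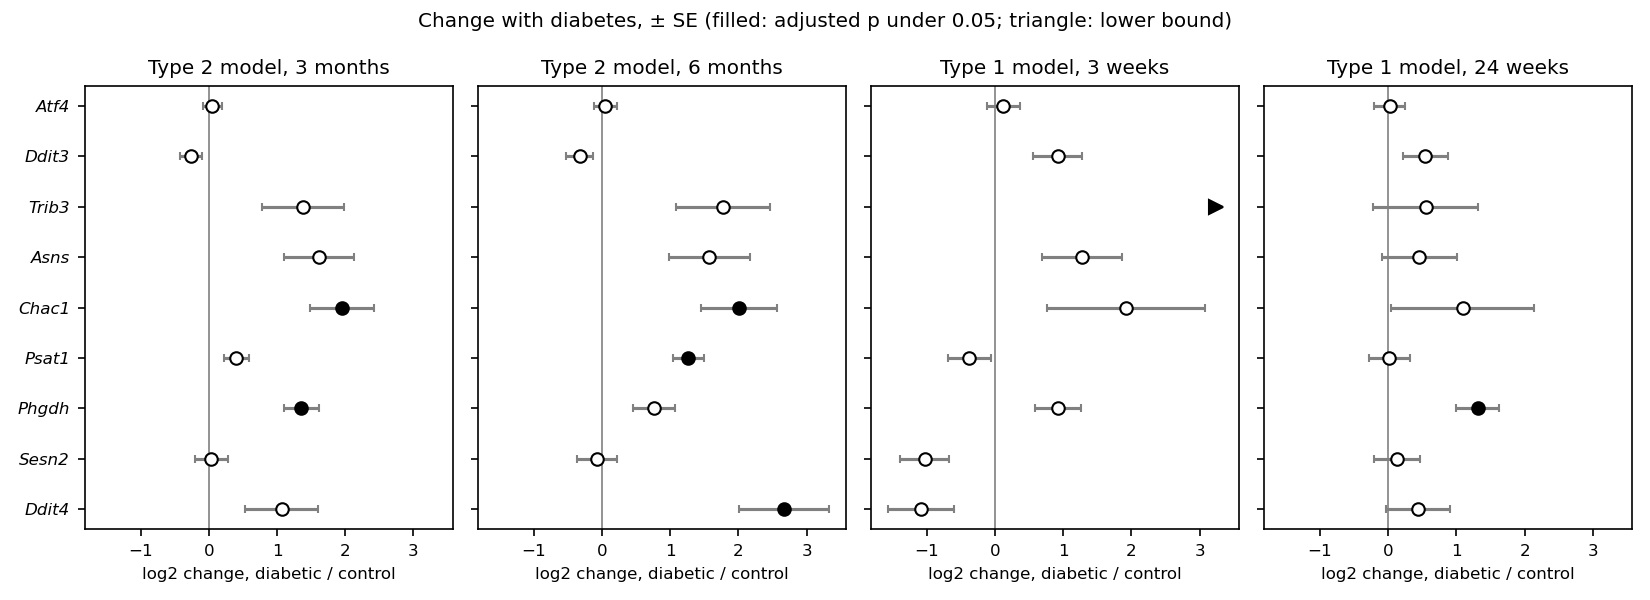
Log2 change of each gene, diabetic over control, in the 4 comparisons; bars are ± 1 SE, filled symbols mark an adjusted p under 0.05, and the triangle for Trib3 at 3 weeks is the lower bound against the floor of 3 counts per control library. Atf4 lies near 0 in all 4 panels, from 0.02 to 0.12, while Phgdh, Chac1 and Asns lie to the right of 0 in all 4.

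Differences between the effects themselves were mostly not resolved. Between 3 and 6 months of the type 2 model edgeR called 0 members (0% of all genes), and DESeq2 and limma also called 0. The unadjusted p in edgeR was under 0.05 for 1 member, beside 3252 of all 17180 genes. Between 3 and 24 weeks of the type 1 model edgeR called 0 members (0% of all genes), limma called 0 and DESeq2 called 1, Trib3. There 3 members, Trib3, Sesn2 and Ddit4, had an unadjusted p under 0.05 in edgeR, beside 1092 of all 16279 genes. Between the models, the early effects of Trib3 differed, smaller in the type 2 model (adjusted p = 0.0155; 0.94% of all genes called), a call that rests on the 3-week controls at 0. It was lost with limma on FPKM (adjusted p = 0.355) and without diabetic replicates 1 to 3 at 3 weeks (0.0516). Ddit4 pointed to opposite sides of 0 in the early comparisons of the models, and the difference of 2.12 ± 0.78 did not pass (adjusted p = 0.201). Between the late effects edgeR called 0 members (0.438% of all genes), limma 0 and DESeq2 1, Psat1. In edgeR 2 members, Psat1 and Ddit4, had an unadjusted p under 0.05, beside 2802 of all 18511 genes. The late times differ in age, 6 and 8 months.

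Podocyte markers and those of other kidney cells also differed in these comparisons. In the type 2 model at 6 months 8 of 8 podocyte markers fell, their sum being 2568 to 13941 CPM in the diabetic libraries and 24064 to 28163 CPM in the controls, and 6 of 9 macrophage markers rose, with sums of 174 to 275 and 73.6 to 114 CPM. Proximal tubule markers fell for 9 of 12, and their sums were 2626 to 6297 and 9260 to 11857 CPM. With the podocyte score as a covariate 0 members were called at 6 months; the change of Psat1 was 1.08 (adjusted p = 0.162) and that of Chac1 2.33 (0.209), while Ddit4 turned to -0.43 (0.833). Over all genes 104 were called in that fit against 3934. The podocyte score (mean log2 CPM of the markers) was 7.68 to 10.01 in the 6-month diabetic libraries and 11.03 to 11.25 in the controls. With the arms apart in the score, that fit can hardly part the score from diabetes. At 3 months the podocyte score raised the calls over all genes from 685 to 1442, and Chac1 (2.08, adjusted p = 0.0171) and Phgdh (1.24, 0.00818) were still called. When the fit held the proximal tubule score, 0 members were called in each of the 4 comparisons, and the calls over all genes were 161, 13, 63 and 8 against 685, 3934, 1058 and 146. In that order, the highest diabetic score was 7.72, 7.24, 7.765 and 7.88, and the lowest control score 8.025, 8.25, 8.33 and 8.21. The arms were apart in the score each time, so the lost calls in those fits cannot part the score from diabetes. The fitted log2 changes in those fits were 1.38 for Phgdh and 1.66 for Chac1 at 3 months, 1.70 for Psat1, 1.56 for Chac1 and 1.32 for Ddit4 at 6 months, and 1.41 for Phgdh at 24 weeks, against 1.36, 1.96, 1.27, 2.01, 2.67 and 1.31 without the score. At 3 weeks 5 of 9 macrophage markers rose (sums of 95.1 to 304 CPM in the diabetic libraries and 46.2 to 100.6 CPM in the controls) and 7 of 12 proximal tubule markers fell (3986 to 6992 and 9944 to 16455 CPM). At 3 months 4 of 12 proximal tubule markers fell (2981 to 7231 and 8322 to 12477 CPM), and at 24 weeks 1 of 12 fell (4730 to 8636 and 8154 to 13058 CPM). Macrophage markers gave 0 calls of 9 at those times, with median log2 changes of 1.33 at 3 months and 0.98 at 24 weeks. Their sums were 42.1 to 304.5 and 55.6 to 77.3 CPM at 3 months, and 131 to 254 and 77.1 to 149 CPM at 24 weeks. Podocyte markers gave 0 calls of 8 at all times but 6 months. Their median log2 changes were -0.49 at 3 months, -0.34 at 3 weeks and -0.51 at 24 weeks. Parietal epithelium markers were called higher for 2 of 6 at 3 months, 5 of 6 at 6 months, 3 of 6 at 3 weeks and 0 of 6 at 24 weeks. Their sums at 3 months were 105 to 271 CPM in the diabetic libraries and 102 to 137 CPM in the controls, and at 6 months 209 to 430 and 94.4 to 136 CPM. Mesangium and smooth muscle markers were called higher for 2, 4, 2 and 0 of 8, with sums of 171 to 762 and 124 to 163 CPM at 3 months and of 188 to 711 and 143 to 188 CPM at 6 months. Of 5 lymphocyte markers 1 was called higher at 6 months and 1 at 3 weeks. The part of these markers in the members' changes was not tested. No defining marker of podocytes, proximal tubule or macrophages was at 0 in all libraries of a group.

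Across the 36 TRAP libraries, after taking out group means, the log2 CPM of the members formed no single block (Pearson's r, a description over libraries that share depth and cell mix). Psat1 and Sesn2 had an r of 0.62, Sesn2 and Ddit4 0.60, Psat1 and Phgdh 0.54, and Atf4 and Ddit3 0.52. Atf4 ran against Sesn2, at -0.57. The podocyte marker score had an r of 0.72 with Atf4, -0.56 with Sesn2 and -0.52 with Ddit4, and the macrophage score had 0.51 with Ddit4 and 0.41 with Asns. The endothelium score had the r farthest from 0 with Atf4, -0.84, and 0.62 with Sesn2 and 0.53 with Ddit4. Atf4 also had -0.64 with the collecting duct score, and Asns 0.44 with that of mesangium and smooth muscle. Likeness to single genes was taken with group means left in, so differences between groups enter those r values. Among 18511 genes over all 36 libraries, the gene most like Atf4 in pattern was Tmsb10 (r = 0.82). Those most like the others were Trafd1 for Ddit3 (0.64), Foxj1 for Trib3 (0.82), Bak1 for Asns (0.80), Cpsf7 for Chac1 (0.70), Bub1b for Psat1 (0.73), Tpm2 for Phgdh (0.77), Erbb3 for Sesn2 (0.80) and Bcl2l1 for Ddit4 (0.79).

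Genes upstream of Atf4 and other lists of the pathway were counted against the share of all genes called, which was 3.99% at 3 months, 22.9% at 6 months, 6.5% at 3 weeks and 0.897% at 24 weeks (2.03%, 11.2%, 3.78% and 0.448% higher). Of the 4 eIF2 kinase genes edgeR called 0 at 3 months of the type 2 model and 0 at 24 weeks of the type 1 model (0 and 1 with an unadjusted p under 0.05). Eif2ak2, the kinase activated by double-stranded RNA, rose at 6 months (log2 change 0.72 ± 0.22, adjusted p = 0.0251) and at 3 weeks (1.01 ± 0.23, adjusted p = 0.009). Eif2ak1, the haem-sensing kinase, fell at 6 months by 0.40 on the log2 scale (adjusted p = 0.0136). Of 11 genes for eIF2, its exchange factor eIF2B and the phosphatases that reverse the response, 2 fell at 6 months, the kinase inhibitor Dnajc3 (-0.61 ± 0.14) and the exchange factor subunit Eif2b5 (-0.51 ± 0.15), and 0 passed in the other 3 comparisons (2, 1 and 1 with an unadjusted p under 0.05 at 3 months, 3 weeks and 24 weeks). Of 7 partner transcription factors, Atf5 rose at 6 months (1.157 ± 0.30, adjusted p = 0.012), and 0 passed elsewhere (3, 1 and 1 with an unadjusted p under 0.05, in the same order). Each list was tested with edgeR only. Over all genes, an unadjusted p under 0.05 was found for 2779 of 17180 at 3 months and 6336 of 17180 at 6 months. It was found for 3394 of 16279 at 3 weeks and 1745 of 16279 at 24 weeks. Unadjusted counts here and below stand beside these shares.

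The same shares of all genes stand beside the counts of the amino acid arm, 22.9% at 6 months and 0.897% to 6.5% at the other times. Among 10 genes of serine, proline and one-carbon metabolism, Mthfd1l, a mitochondrial enzyme of the folate cycle, rose at 3 months from 1.45 ± 0.46 to 6.87 ± 2.06 CPM (SD, n = 5 and 5; log2 change 2.24, adjusted p = 0.000106). At 6 months 4 of the 10 rose, Mthfd1l (2.29 ± 0.34) and Aldh1l2 (1.85 ± 0.51) among them, and 2 fell. Cbs, which uses serine to make cystathionine, fell at both ages, by 0.89 and 1.49 on the log2 scale. In the type 1 model 0 of the 10 were called (4 with an unadjusted p under 0.05 at 3 weeks and 3 at 24 weeks). Among the amino acid transporters tested, 4 of 8 rose at 6 months, including Slc7a5, a carrier of large neutral amino acids (2.40 ± 0.59), the cationic carrier Slc7a1 (1.11 ± 0.26) and the neutral carrier Slc38a2 (0.74 ± 0.14). Slc7a5 also rose at 3 months (1.83 ± 0.50), Slc7a1 at 3 weeks (0.66 ± 0.18) and Slc38a2 at 24 weeks (0.80 ± 0.18). The 18 aminoacyl-tRNA synthetases, some of which ATF4 is known to induce, gave 1 higher and 2 lower calls at 6 months and 1 higher at 3 weeks. At the other times 0 were called (2 at 3 months and 3 at 24 weeks with an unadjusted p under 0.05). Changes were above 0 for 3 of the 18 at 3 months, 7 at 6 months, 16 at 3 weeks and 12 at 24 weeks.

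Most genes of the other arms of the unfolded protein response had fitted changes below 0 in both models, with nearly all calls at 6 months of the type 2 model. Of 14 genes of the ATF6 and IRE1 arms, largely chaperones of the endoplasmic reticulum, 13 fell at 6 months, where 22.9% of all genes were called. The median log2 change of the 14 was -1.29, beside -0.01 over all genes. Hsp90b1 fell from 243 ± 26.8 to 82.7 ± 4.35 CPM (SD, n = 4 and 3), Pdia4 from 152 ± 32.0 to 44.5 ± 9.39 CPM and Hyou1 from 271 ± 40.4 to 111 ± 22.7 CPM. Podocyte markers fell in the same libraries, as given above. At 3 months 1 of the 14 was called lower, Hyou1 (-0.58 ± 0.14), where 3.99% of all genes were called. Only 1 of the 14 had a change above 0 there, 9 had an unadjusted p under 0.05, and the median was -0.42. The difference between the 2 ages was called for 0 of the 14 and 0% of all genes. Its unadjusted p was under 0.05 for 11 of the 14, and for 3252 of all 17180 genes. At 3 weeks Edem1 fell and Dnajb9 rose (6.5% of all genes called), 5 of the 14 had a change above 0, and the median was -0.12. At 24 weeks 0 passed (3 with an unadjusted p under 0.05), 2 of the 14 had a change above 0, and the median was -0.25. Between the late effects 3 of the 14 were called, lower in the type 2 model, beside 0.438% of all genes called. Of 10 further ATF4 or CHOP targets tested, Gdf15, a secreted stress signal, rose in 3 of the 4 comparisons: by a log2 change of 3.27 ± 0.58 at 6 months, 3.29 ± 0.62 at 3 weeks and 2.50 ± 0.55 at 24 weeks. Stc2, a secreted glycoprotein, rose at 3 months (1.48 ± 0.40). At 6 months Bbc3, a trigger of cell death, rose and Herpud1, which helps degrade misfolded protein, fell. Cebpb and Nupr1 stand in this list and in that of the partner factors.

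Genes with inducers that Ddit4 and Sesn2 share were counted as well, again beside 3.99%, 22.9%, 6.5% and 0.897% of all genes called at 3 months, 6 months, 3 weeks and 24 weeks. Of 7 genes induced by p53, 2 rose at 3 months, 4 at 6 months, 5 at 3 weeks and 3 at 24 weeks, and 0 fell. They include Cdkn1a, an inhibitor of the cell cycle, with a log2 change of 2.34 ± 0.55 at 3 months and 3.74 ± 0.67 at 6 months. Of 6 genes induced by glucocorticoids, Sgk1 rose at 3 months, 6 months and 24 weeks, Per1 fell at 6 months, and Klf9 fell at 3 weeks. Of 8 genes induced by hypoxia, 3 rose and 2 fell at 6 months, 1 rose at 3 weeks, and 0 passed at the other times (1 each with an unadjusted p under 0.05). Of 8 immediate-early genes, Egr1 rose at both ages of the type 2 model, and 0 passed in the type 1 model (2 at 3 weeks and 0 at 24 weeks with an unadjusted p under 0.05). Of 10 other inputs to mTORC1, Sesn3 and Ddit4l, relatives of 2 members, rose at 6 months, Ddit4l rose at 24 weeks, and Mtor itself fell at 3 months by 0.71 on the log2 scale.

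**Figure D4:**
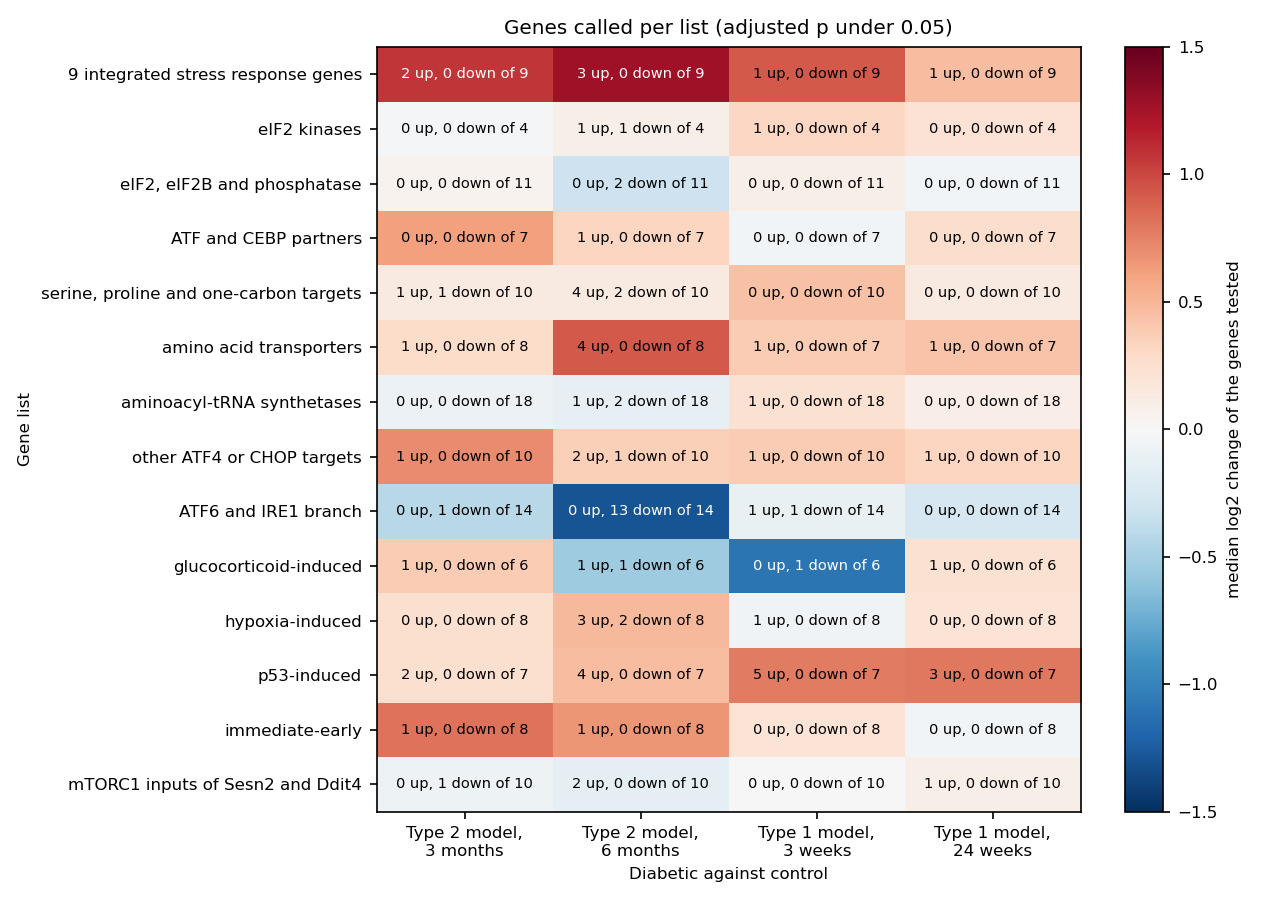
Calls per gene list in the 4 comparisons: each cell gives the genes called higher and lower of those tested, and the colour the median log2 change. The 9 integrated stress response genes have medians above 0 in all 4 comparisons, and 13 of 14 genes of the ATF6 and IRE1 arms fell at 6 months of the type 2 model.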

How the data were processed

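The deposited raw counts per gene and the deposited FPKM cover 37 libraries; per the submitters' processing notes, cutadapt 1.16, STAR, FastQC and featureCounts 1.15.2 were used by the authors. The deposited FPKM equalled count over length and library total within 0.001 for 100% of values. The notes name mm9, but coordinates were those of GRCm38: 99.981% of 31871 matched genes overlapped their place there. The sources used here do not say whether reads were counted by strand. The counts were then tested with edgeR 4.0.16 under R 4.3.3 (TMM, default filter by group, robust quasi-likelihood test, Benjamini-Hochberg at 0.05): 17 type 2 libraries (17180 genes), 19 type 1 libraries (16279 genes), and all 36 TRAP libraries (18511 genes) between models. CPM used TMM over the 36 libraries. SE is the log2 change over the root of F. The fit was tested on simulated data. Alternatives used DESeq2 1.42.0, limma 3.58.1 on log2(FPKM + 0.5), other scalings, filters, covariates and left-out libraries. No libraries were duplicates. Members and gene lists were chosen with earlier results of these data known. All members are named; of each other list, up to 3 called genes with the smallest p per comparison.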

Additional observations from a re-analysis of the deposited data

Results flagged for a closer look

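Of 62 sets of 4 or 5 libraries (1 gene in 1 group) checked for a value far from the others, 5 stood out, and chance flags about 1 in 20. Trib3 was 3.63 CPM in diabetic replicate 2 at 24 weeks, above 1.53 to 2.06 in the other 4. Asns was 9.94 CPM in diabetic replicate 4 at 3 months. Chac1 was 1.93 CPM in control 4 at 3 weeks and 4.28 CPM in diabetic replicate 4 at 24 weeks. Sesn2 was 55.8 CPM in diabetic replicate 5 at 3 months. The early effect on Trib3 differed between the models (adjusted p = 0.0155 in edgeR), with 4 of 4 type 1 controls at 0.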

How the results depend on the processing

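Over the 4 diabetic comparisons, 684 of the members' values under other settings kept direction and side of the threshold, 31 lost the call, 18 gained it and 41 changed sign. The causes were not tested. Most results were not called in the main fit and so could not lose a call. Calls kept and lost were 16 and 7 (Chac1) and 21 and 2 (Phgdh) at 3 months. At 6 months they were 13 and 6 (Chac1), 17 and 2 (Psat1) and 16 and 2 (Ddit4). They were 21 and 1 for Trib3 at 3 weeks and 11 and 11 for Phgdh at 24 weeks. Members called, main value first: type 2 at 3 months 2, then 1 in the 36-library fit, 0 with the proximal tubule score, 1 with the replicate block and 0 without diabetic replicates 4 and 5; type 2 at 6 months 3, then 6 at an adjusted p under 0.1, 6 with DESeq2, 6 with limma, and 0 with either marker score. Type 1 at 3 weeks had 1, then 2 at an adjusted p under 0.1, 3 in the 36-library fit, 2 with DESeq2, 2 with limma, 2 with the podocyte score and 0 with the proximal tubule score. Type 1 at 24 weeks had 1, then 0 with only the 2 groups, with either score and with the replicate block. The early difference had 1, then 0 with limma, with the block and without diabetic replicates 1 to 3 at 3 weeks (chosen after seeing the data). The late difference had 0, then 1 with DESeq2; the change between times had 0, then 1 with DESeq2 and 1 in the 36-library fit (type 1), and 2 without diabetic replicates 4 and 5 (type 2). With 1 library left out the counts ran from 1 to 2, 2 to 3, 1 to 4 and 0 to 1 in the 4 comparisons, and stayed at 1 (early) and 0 (late, both changes over time). Sign changes with the proximal tubule score: Atf4 -0.10 (3 months), -0.20 (6 months), -0.18 (3 weeks) and -0.22 (24 weeks), Psat1 0.19 (3 weeks), Sesn2 0.14 (6 months). With the podocyte score: Ddit4 -0.061 (3 months) and -0.43 (6 months), Trib3 -0.95 (6 months), Sesn2 -0.19 (3 months) and -0.33 (24 weeks), Psat1 -0.20 (24 weeks). The arms did not overlap in the proximal tubule score in any of the 4 comparisons, nor in the podocyte score at 6 months. Without diabetic replicates 4 and 5 at 3 months Ddit4 was -0.44 and Sesn2 -0.15. Sesn2 at 6 months was 0.00050 with DESeq2, 0.21 with limma and 0.029 with upper quartile factors, and Psat1 at 24 weeks was -0.057 with limma.

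Leaving out 1 library, Atf4 ran from -0.019 to 0.12, -0.16 to 0.17, -0.071 to 0.31 and -0.061 to 0.14 in the 4 comparisons, Sesn2 from -0.13 to 0.28 (3 months), -0.28 to 0.061 (6 months) and -0.19 to 0.28 (24 weeks), and Psat1 from -0.29 to 0.23 (24 weeks). Replicate numbers did not pair libraries: deviations of 17 same-numbered pairs had r from -0.07 to 0.14. With the replicate block Atf4 was -0.064 at 3 weeks, Psat1 -0.084 at 24 weeks and Sesn2 0.042 at 6 months, and Chac1 lost its calls (adjusted p = 0.0773 and 0.111), as did Phgdh at 24 weeks (0.0914) and the early difference of Trib3 (0.0717). All genes called ranged over the other settings from 161 to 1442 (685 in the main fit), 13 to 4905 (3934), 63 to 1809 (1058) and 8 to 446 (146), and with 1 library left out from 404 to 737, 1932 to 5350, 611 to 1350 and 67 to 262. The change over time called 0 genes in the type 2 model, 582 with DESeq2, and up to 1911 with 1 library left out. Low counts limit Trib3, Chac1 and Asns.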
